A study of Mus musculus with 17 samples.

Results

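The chemokine and chemoattractant receptors described here are 9 genes of the deposited expression table, taken by gene symbol: Ccr1, Ccr2, Ccrl2, Cx3cr1, Cxcr4, C5ar1, C3ar1, Fpr1 and Fpr2. All 9 were found, among 24453 gene models. PolyA RNA-seq of mouse macrophages gave 13 libraries with values. The iBMDMs, bone marrow-derived macrophages of C57Bl/6EiJ made immortal with mutant BRAF (V600E) and Myc, made up 4 groups of 2 libraries: Scramble (the control, zsGreen in the titles), Atf3KO, JunKO and JunDKO. These lines were made by CRISPR with 2 guides per lentivirus and sorting for the reporter, with no selection of clones stated. No iBMDM title names KLA: the knockout titles carry Veh (vehicle), and the zsGreen titles name no treatment. Thioglycollate-elicited macrophages (TGEMs) were primary peritoneal cells of mice aged 8 weeks, collected 3 days after injection. C57Bl/6EiJ TGEMs gave 1 vehicle library and 1 library after 1 h of Kdo2 lipid A (KLA, a TLR4 agonist, at 100 ng/mL). Balb/cJ TGEMs gave 1 vehicle library and 2 KLA libraries. The study's animal methods name the C57 mice C57Bl/6J, and the sample titles give C57Bl6. Values are RPKM, reads scaled to exon length and to library depth.

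These receptors sit in the plasma membrane and, when bound by a ligand gradient, steer leukocytes toward it. Most couple to inhibitory G proteins, and after binding they are phosphorylated and taken inside with the help of arrestins. Ccr1 and Ccr2 bind inflammatory CC chemokines, Ccr2 being the receptor for Ccl2 that brings monocytes out of the marrow. Cx3cr1 binds the membrane-anchored chemokine Cx3cl1, and Cxcr4 binds Cxcl12 and holds cells in the marrow. C5ar1 and C3ar1 read the complement fragments C5a and C3a, and Fpr1 and Fpr2 read formylated peptides that bacteria and damaged mitochondria release. Ccrl2 differs from the rest in that it binds chemerin without the usual signalling through G proteins.

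Library depth ran from 1553296 to 18444345 reads, the deepest being JunDKO replicate 2 and the shallowest JunDKO replicate 1. The Atf3KO libraries held reads of the fewest gene models, 10425 and 10631 against 12207 and 12491 in Scramble. They did so at greater depth, 4397161 and 7236844 reads against 1929987 and 1711540. The part of this in the low Atf3KO values of Ccr1, Ccr2 and Ccrl2 was not tested. The macrophage markers were present, with 8 of 8 at a mean of at least 1 RPKM in both kinds of macrophage. Of these 8, Mertk was called higher in Atf3KO (26.7 RPKM against 7.65 in Scramble, 1.68 ± 0.20, limma adjusted p = 0.000916) and in JunDKO (36.5 RPKM, 2.12 ± 0.20, limma adjusted p = 0.000509), and 0 were called in JunKO by limma-trend or limma-voom, with 2 at an unadjusted p under 0.05. Itgam, not a call, stood at 213 and 220 RPKM in JunDKO and at 441 and 420 in Scramble. The part of these shifts in the receptor changes was not tested. Exonic levels of the targeted genes do not test the edits, because small lesions can leave the transcript in place. Atf3 stood at 154 and 169 RPKM in Atf3KO and at 80.7 and 77.4 in Scramble, so it was higher where it was targeted. Jun stood at 26.2 and 20.52 RPKM in JunKO (Scramble 17.6 and 18.5) and Jund at 6.94 and 6.07 in JunDKO (Scramble 9.19 and 8.33). The study checked the knockouts at the protein level by western blotting, which is not analysed here, and the groups are named by their labels. Atf3KO replicate 2 carries a later date in its title than the other 7 iBMDM libraries, and in TGEMs strain and date cannot be told apart.

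**Figure D1:**
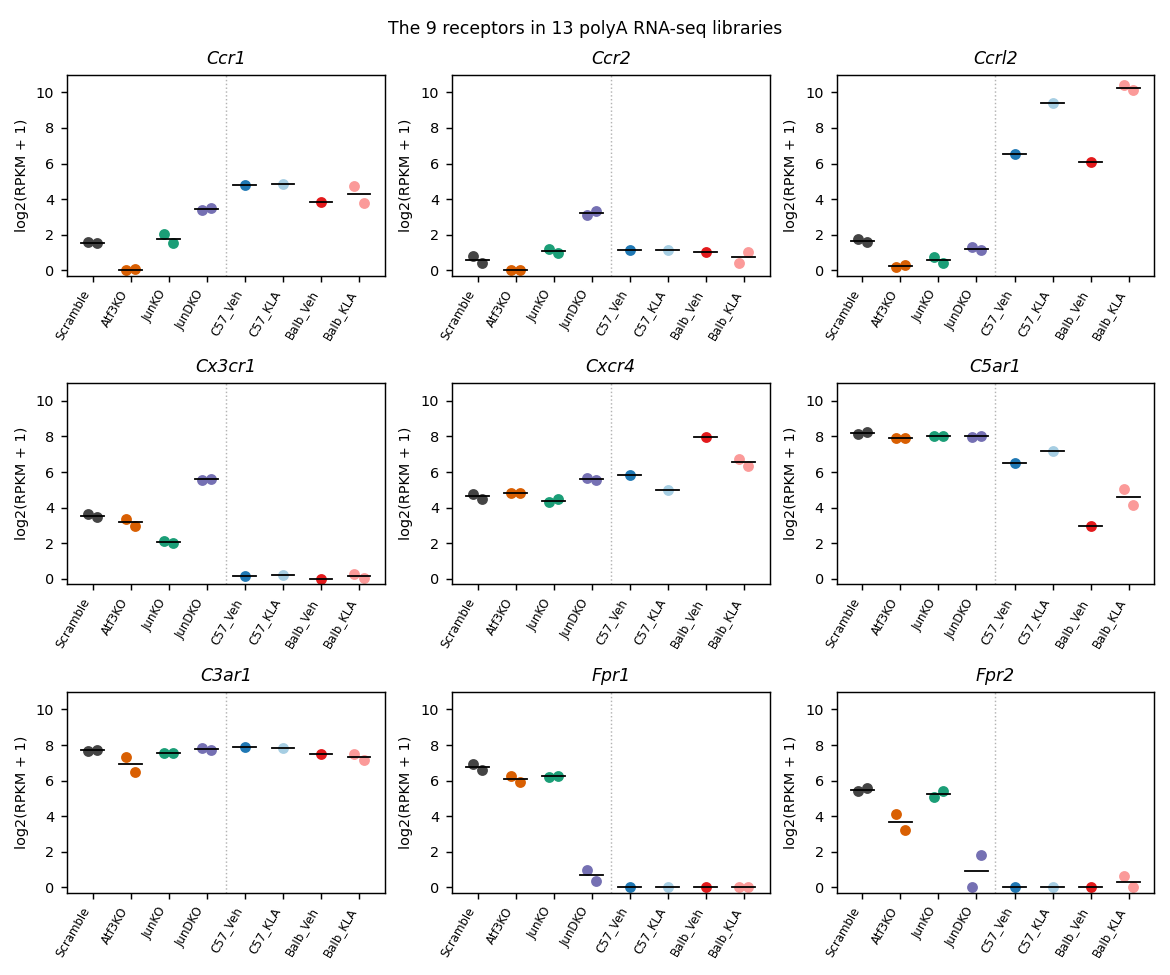
Each panel plots 1 receptor, with log2(RPKM + 1) on the vertical axis and the 8 groups along the horizontal axis, iBMDMs to the left of the dotted line and TGEMs to the right. Points are libraries and bars are group means. Fpr1 is high in the Scramble, Atf3KO and JunKO libraries (60.03 to 123 RPKM), at 0.976 and 0.288 RPKM in JunDKO, and 0 in the 5 TGEM libraries.

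The 2 formyl peptide receptors lost nearly all of their transcript in the libraries labelled JunDKO. Fpr1 (chromosome 17, 17876471 to 17883939, minus strand, GRCm38 here and below) stood in Scramble at 123 and 93.9 RPKM, in Atf3KO at 75.2 and 60.03, in JunKO at 73.8 and 77.0, and in JunDKO at 0.976 and 0.288. The JunDKO libraries lay far below all other iBMDM libraries and did not overlap with them. Lack of overlap with Scramble was frequent over all tested genes, at 61.6% in JunDKO, 70.8% in Atf3KO and 37.2% in JunKO. The JunDKO values of Fpr1 rest on 2 and 7 reads, against 312 and 212 in Scramble. Pooled over the libraries of each group, the ratio of read rates was 320. Its exact 95% interval of 167 to 703 covers counting error only. Through its depth, JunDKO replicate 2 weighs most in such pooled rates. In the limma-trend fit the log2 fold change of RPKM + 1 was -6.09 ± 0.25 (SE, n = 2 per group; limma adjusted p = 8.77e-06), and it stayed called in 15 of 15 alternatives, at limma adjusted p values of 3.37e-06 to 0.000645. Fpr2 (chromosome 17, 17887824 to 17893952, plus strand) stood in Scramble at 41.3 and 46.6 RPKM, in Atf3KO at 16.2 and 8.34, in JunKO at 32.7 and 42.4, and in JunDKO at 0 and 2.56. The JunDKO change came to -4.57 ± 0.54 (limma adjusted p = 0.00143), called in 15 of 15 alternatives. It was -3.66 without JunDKO replicate 1 and -5.49 without JunDKO replicate 2, so each library moved the fold by over 1.5 times. The zero of JunDKO replicate 1 allows up to 1.84 RPKM by its exact 95% interval, where 3 reads would be 1.50 RPKM. How reads shared by close paralogues were counted is not given in the sources used here, and Fpr3, the neighbour closest to Fpr2 in sequence, was listed at 0 in all 13 libraries.

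The starts of the 2 genes lie 3.88 kb apart and their transcripts run away from each other. The 250 bases before each start are given because both fell together in JunDKO, written 5′ to 3′ along the gene and taken from RefSeq (GRCm38.p6). Fpr1 is chr17:17883940-17884189 on the minus strand and Fpr2 is chr17:17887574-17887823 on the plus strand.
Fpr1: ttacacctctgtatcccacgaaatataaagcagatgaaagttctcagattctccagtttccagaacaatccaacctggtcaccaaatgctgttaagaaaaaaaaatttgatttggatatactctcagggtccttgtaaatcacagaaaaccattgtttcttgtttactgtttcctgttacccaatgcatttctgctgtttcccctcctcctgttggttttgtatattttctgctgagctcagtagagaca
Fpr2: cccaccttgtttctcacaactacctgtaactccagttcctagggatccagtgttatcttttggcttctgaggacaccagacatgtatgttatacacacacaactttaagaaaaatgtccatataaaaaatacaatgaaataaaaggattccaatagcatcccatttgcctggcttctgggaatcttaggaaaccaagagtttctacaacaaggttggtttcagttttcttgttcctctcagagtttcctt
Capitals mark matches to 5 motifs that were chosen with the values known: AP-1 (TGAGTCA), CRE (TGACGTCA), NF-kappaB (GGGANTTTC), PU.1 (AGAGGAAG) and C/EBP (TTGCNNAA), searched on both strands in 300 bases from 250 before to 50 after the start. Neither promoter holds a match. Of 32851 mouse promoters of that length, 5.2% hold the AP-1 motif, 1.79% the CRE, 1.11% the NF-kappaB, 4.55% the PU.1 and 10.8% the C/EBP motif.

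Neutrophils also carry Fpr1 and Fpr2. The summed level of the 9 neutrophil markers ran from 10.8 to 11.6 RPKM in JunDKO and from 9.27 to 11.4 in Scramble, with Ly6g, Camp and Retnlg at 0 in all of them. Mmp8 gave most of each sum. In Atf3KO the sum was lower, at 0.283 to 1.02 RPKM, and its part in the Fpr2 result below was not tested. In Atf3KO the fall of Fpr2 was smaller, at -1.82 ± 0.54 (n = 2 per group; limma adjusted p = 0.0283), and it was called. The call was lost without Scramble replicate 1 (limma adjusted p = 0.0912), without Scramble replicate 2 (0.139), without Atf3KO replicate 2 (0.174), after correction for GC content (0.0613), with a pseudocount of 0.1 (0.244), with no filter on low values (0.0656) and at a log2 fold change of 2, so that it held in 8 of 15 alternatives. Fpr1 in Atf3KO differed from Scramble by -0.67 ± 0.25 (limma adjusted p = 0.0646), which is not a call. In JunKO neither passed (Fpr1 -0.50 ± 0.25, limma adjusted p = 0.717; Fpr2 -0.23 ± 0.54, limma adjusted p = 0.971).

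Cx3cr1 (chromosome 9, 120048683 to 120068296, minus strand) moved the other way in JunDKO. Scramble held 11.5 and 10.1 RPKM, Atf3KO 9.46 and 6.97, JunKO 3.44 and 3.11, and JunDKO 45.9 and 48.0. The JunDKO libraries were above, and the JunKO libraries below, those of the other 2 groups, with no overlap. Against Scramble, 61.6% of all tested genes did not overlap in JunDKO and 37.2% in JunKO. The change of Cx3cr1 in JunDKO was 2.02 ± 0.21 (n = 2 per group, limma adjusted p = 0.000724), called in 15 of 15 alternatives. In JunKO it was -1.46 ± 0.21 (limma adjusted p = 0.0444), past the adjusted threshold and 2-fold but under the minimum of 16 RPKM in either group, so not a call. The adjusted threshold was also missed with any of the 4 libraries left out (limma adjusted p of 0.18 to 0.252), with the replicate number as a block (0.0877), with limma-voom (0.147), with no filter on low values (0.06) and with pseudocounts of 0.1 (0.0548) and 5 (0.0684). The study displays Cx3cr1 from these same libraries, so its change is not independent evidence. Between JunDKO and JunKO the difference was 3.49 ± 0.21 (limma adjusted p = 7.86e-05).

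Ccr1 and Ccr2, which lie 133.5 kb apart on chromosome 9, both had higher values in JunDKO, at low levels. Ccr1 (123962126 to 123968692, minus strand) stood in Scramble at 2.02 and 1.86 RPKM, in Atf3KO at 0 and 0.049, in JunKO at 3.11 and 1.86, and in JunDKO at 9.34 and 10.55. Ccr2 (124102183 to 124109140, plus strand) stood in Scramble at 0.723 and 0.326 RPKM, in Atf3KO at 0 and 0, in JunKO at 1.31 and 0.977, and in JunDKO at 7.54 and 9.06. Both JunDKO libraries stood above all other iBMDM libraries for both genes, and both Atf3KO libraries below. Against Scramble, 61.6% of all tested genes did not overlap in JunDKO and 70.8% in Atf3KO. In JunDKO the changes were 1.90 ± 0.28 for Ccr1 (limma adjusted p = 0.00431) and 2.62 ± 0.30 for Ccr2 (limma adjusted p = 0.00129), and neither is a call because neither group mean reached 16 RPKM. By reads pooled over each group, Ccr2 was 16.7 times higher in JunDKO (exact 95% interval 8.05 to 41.6, 641 reads against 7). Ccr1 was 5.38 times higher (3.45 to 8.87, 591 reads against 20). These ratios rest mostly on JunDKO replicate 2, which gave 599 of the 641 Ccr2 reads and 550 of the 591 Ccr1 reads. In Atf3KO, Ccr1 held 1 read and Ccr2 none. At 3 reads over the group Ccr2 would be 7.45-fold lower, which takes the 7 Scramble reads without their counting error. In the fit Ccr2 differed by -0.60 ± 0.30 (limma adjusted p = 0.145) and did not pass. Ccr1 differed by -1.52 ± 0.28 (limma adjusted p = 0.00483), under the RPKM minimum. Fold changes of Atf3KO rose with GC content (Spearman's rho 0.5 across 10617 genes, not independent replicates). After correction for it the Ccr1 difference was -0.64 (limma adjusted p = 0.191) and that of Ccr2 turned from -0.60 to 0.36 (limma adjusted p = 0.482), and with quantile normalization Ccr1 was at -0.81 (limma adjusted p = 0.06).

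Cxcr4 (chromosome 1, 128588199 to 128592299, minus strand) stood in Scramble at 26.1 and 21.6 RPKM, in Atf3KO at 27.4 and 27.9, in JunKO at 18.8 and 21.3, and in JunDKO at 49.4 and 46.5. The JunDKO libraries were higher than all other iBMDM libraries, where 61.6% of all tested genes did not overlap between JunDKO and Scramble. Against Scramble the difference was 0.98 ± 0.18 (n = 2 per group; limma adjusted p = 0.01), a 1.98-fold change that just misses the 2-fold limit, where the median of all tested genes differed by 0.23. It was past both limits in 3 of 15 alternatives: with a pseudocount of 0.1 (1.01, limma adjusted p = 0.0107), after correction for GC content (1.02, limma adjusted p = 0.0049) and without Scramble replicate 1 (1.11, limma adjusted p = 0.036). The adjusted threshold was missed without Scramble replicate 2 (limma adjusted p = 0.0816) or either JunDKO library (0.0958 and 0.0729). Against JunKO it was 1.22 ± 0.18 (limma adjusted p = 0.00519), which is a call that was lost at equal library medians (0.97, limma adjusted p = 0.0131), without JunDKO replicate 1 (limma adjusted p = 0.0664) and without JunDKO replicate 2 (0.0543).

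C5ar1 and C3ar1, the complement receptors, were the most abundant of the 9 in iBMDMs, and Ccrl2 was near 0. C5ar1 (chromosome 7, 16246743 to 16259540, minus strand) stood in Scramble at 284 and 299 RPKM, in Atf3KO at 243 and 241, in JunKO at 255 and 258, and in JunDKO at 253 and 258. C3ar1 (chromosome 6, 122847140 to 122856157, minus strand) stood in Scramble at 204 and 209 RPKM, in Atf3KO at 161 and 89.1, in JunKO at 187 and 188, and in JunDKO at 231 and 210.1. Neither was called against Scramble in any of the 3 knockouts. The lowest C3ar1 value was that of Atf3KO replicate 2; the difference of Atf3KO was -0.78 ± 0.26 (limma adjusted p = 0.0419), and it was -0.36 without that library and -1.20, a call, without Atf3KO replicate 1. After correction for GC content it was -0.24 (limma adjusted p = 0.301). Ccrl2 (chromosome 9, 111054834 to 111057244, minus strand) stood in Scramble at 2.36 and 1.99 RPKM, in Atf3KO at 0.129 and 0.236, in JunKO at 0.667 and 0.332, and in JunDKO at 1.47 and 1.20, from 1 to 39 reads per library. Its difference in Atf3KO, -1.42 ± 0.32 (limma adjusted p = 0.00998), was under the RPKM minimum, and with quantile normalization it was -0.63 (limma adjusted p = 0.14).

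C3ar1 is the member whose promoter held a match, to the AP-1 motif, read on the strand opposite the gene and beginning 22 bases before the start. Among the 11 windows scanned for the 9 members it was the only window with a match to any of the 5 motifs. The letters are shown in capitals in the 250 bases before its start (chr6:122856158-122856407, minus strand), beside the same stretch of Cx3cr1 (chr9:120068297-120068546, minus strand), the receptor called higher in JunDKO.
C3ar1: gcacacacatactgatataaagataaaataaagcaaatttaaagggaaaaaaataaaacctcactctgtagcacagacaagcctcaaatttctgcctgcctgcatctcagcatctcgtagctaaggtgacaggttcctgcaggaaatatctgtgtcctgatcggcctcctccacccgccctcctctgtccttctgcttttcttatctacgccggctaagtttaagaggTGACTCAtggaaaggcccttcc
Cx3cr1: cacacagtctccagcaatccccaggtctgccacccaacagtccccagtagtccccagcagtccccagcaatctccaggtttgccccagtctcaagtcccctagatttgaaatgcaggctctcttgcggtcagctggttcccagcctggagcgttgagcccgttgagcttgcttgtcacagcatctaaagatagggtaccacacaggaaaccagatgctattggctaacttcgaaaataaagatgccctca
For C5ar1 the RefSeq window belongs to a start 202 bases inside the model of the table. A match describes letters only.

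**Figure D2:**
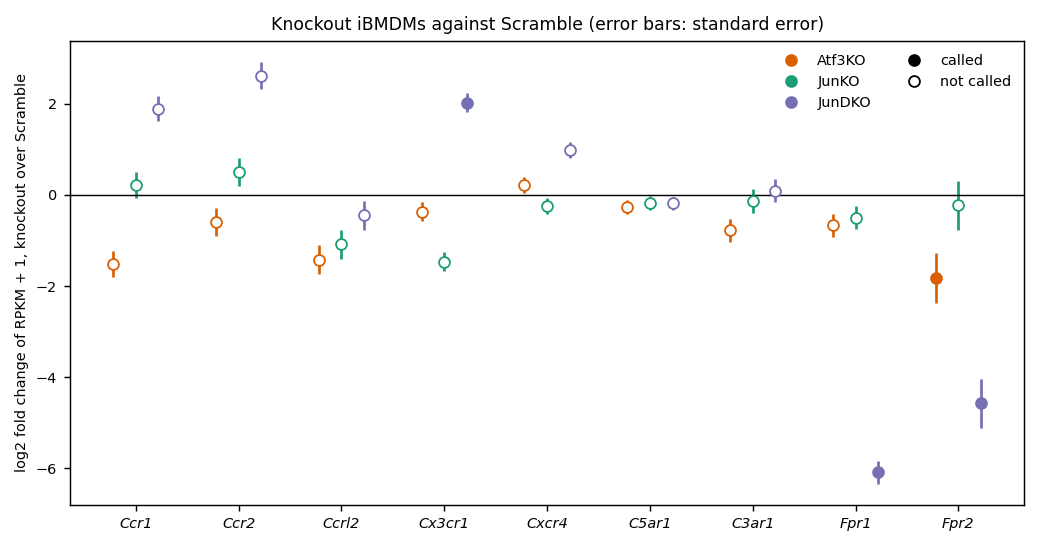
The horizontal axis lists the 9 receptors and the vertical axis gives the log2 fold change of RPKM + 1 of each knockout over Scramble, with standard errors. Filled points are called: Fpr2 in Atf3KO, and Fpr1, Fpr2 and Cx3cr1 in JunDKO. The JunDKO points of Fpr1 and Fpr2 lie at -6.09 and -4.57.

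Counted over the 9 receptors, all of them tested in iBMDMs, 1 was called in Atf3KO (0 higher, 1 lower), where 12.5% of all 10691 tested genes were called; 0 in JunKO, where 0.196% were; and 3 in JunDKO (1 higher, 2 lower), where 4.97% were. The 0 of JunKO is a limma count, beside 1 receptor past an adjusted p of 0.05, Cx3cr1, and 2 at an unadjusted p under 0.05, Cx3cr1 and Ccrl2; limma-voom on recovered reads also called 0. The median log2 fold change of the 9 was -0.67 in Atf3KO, -0.23 in JunKO and 0.10 in JunDKO, against 0.05, 0.01 and 0.23 over all tested genes. Directly compared, Atf3KO and JunDKO differed in 2 called receptors, Fpr1 and Cx3cr1 (12.2% of all genes), JunDKO and JunKO in 4, Fpr1, Fpr2, Cx3cr1 and Cxcr4 (3.5%), and Atf3KO and JunKO in 0 by limma (9.71%), with 6 at an unadjusted p under 0.05. Comparisons with Scramble share its 2 libraries.

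In TGEMs the 1 h KLA treatment raised Ccrl2. Ccrl2 measured 93.5 RPKM in the C57Bl/6EiJ vehicle library, 67.02 in the Balb/cJ vehicle library, 669.6 in C57Bl/6EiJ KLA and 1341 and 1117 in Balb/cJ KLA. All 3 KLA libraries stood above both vehicle libraries, where 23.7% of all tested genes did not overlap. The log2 fold change was 3.60 ± 0.36 (3 against 2 libraries, with strain as a term; limma adjusted p = 0.0032), a 12.1-fold change on the RPKM + 1 scale, and within the same title date it was 2.83 in C57Bl/6EiJ and 4.30 in Balb/cJ. The call held in 15 of 17 alternatives and was lost without the Balb/cJ vehicle library (2.83, limma adjusted p = 0.149) and with no filter on low values (limma adjusted p = 0.0558). Neutrophil markers summed to 13.8 and 20.3 RPKM in the vehicle libraries and to between 3.33 and 10.8 in the KLA libraries, mostly Mmp8. Ly6g, Camp and Retnlg were at 0 in all. Of the 8 macrophage markers 4 had higher and 4 lower values after KLA. Cd14 was the 1 called, at 418 RPKM against 31.6 (3.71 ± 0.50, limma adjusted p = 0.0135). The part of these markers in the Ccrl2 change was not tested. In these bulk samples fewer cells of a type and less RNA per cell cannot be told apart.

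The 250 bases before the start of Ccrl2 that the table uses (chr9:111057245-111057494, minus strand, RefSeq) are shown because Ccrl2 was the called receptor of the KLA comparison.
Ccrl2: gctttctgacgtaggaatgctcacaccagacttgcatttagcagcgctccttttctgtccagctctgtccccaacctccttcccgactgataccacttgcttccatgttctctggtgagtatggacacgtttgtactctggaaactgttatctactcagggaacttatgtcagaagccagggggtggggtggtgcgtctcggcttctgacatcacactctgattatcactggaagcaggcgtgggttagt

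Cxcr4 and C5ar1 had values in opposite directions after KLA, and neither passed. Cxcr4 measured 56.3 RPKM in C57Bl/6EiJ vehicle and 30.9 in C57Bl/6EiJ KLA, and 247.7 in Balb/cJ vehicle and 105 and 81.2 in Balb/cJ KLA. Within each strain the KLA libraries were lower, and the difference was -1.17 ± 0.28 (limma adjusted p = 0.132). C5ar1 measured 88.9 and 144 RPKM in C57Bl/6EiJ vehicle and KLA, and 6.72 in Balb/cJ vehicle and 31.8 and 16.5 in Balb/cJ KLA. It was higher after KLA within each strain (1.23 ± 0.37, limma adjusted p = 0.214). When the 13 libraries shared a single fit, which puts the spread of the iBMDMs into the test, both were called (limma adjusted p = 0.00932 for Cxcr4 and 0.0356 for C5ar1). With limma-voom on recovered reads Cxcr4 was called (limma adjusted p = 0.0143) and C5ar1 was not (0.0977). Ccr1 measured 27.3 RPKM in C57Bl/6EiJ vehicle and 28.1 after KLA, and 13.1 in Balb/cJ vehicle and 25.6 and 13.01 after KLA, and C3ar1 236 and 226, and 178 and 179 and 143. Of the 5 receptors tested, 1 was called, where 1.13% of 10357 genes were. The other 4, Ccr2, Cx3cr1, Fpr1 and Fpr2, had means under 1 RPKM and were not tested: Ccr2 ran from 0.340 to 1.20 RPKM, Cx3cr1 from 0 to 0.232 and Fpr2 from 0 to 0.539, and Fpr1 was 0 in all 5.

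**Figure D3:**
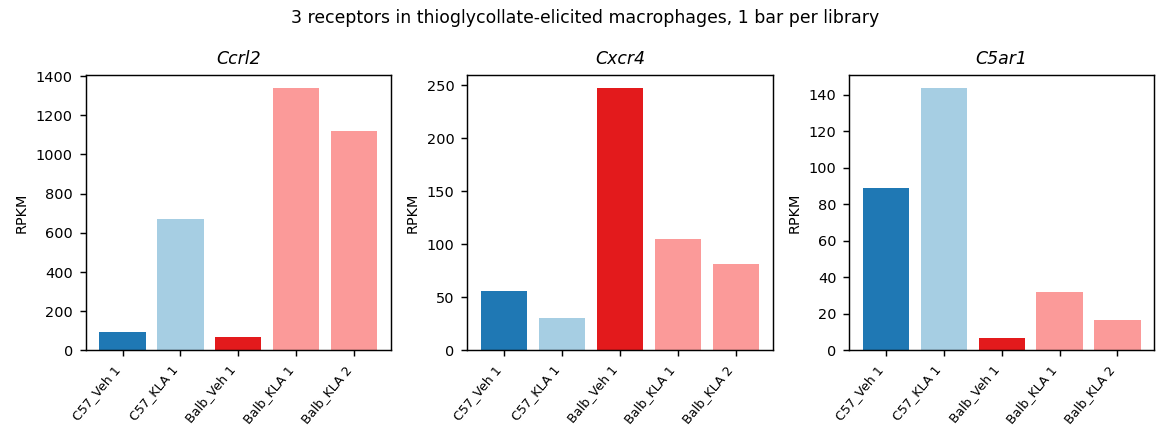
Bars give RPKM, from 0, of Ccrl2, Cxcr4 and C5ar1 in the 5 TGEM libraries, 1 bar per library, coloured by strain and treatment. Ccrl2 reaches 669.6 to 1341 RPKM in the KLA libraries, and C5ar1 is at 6.72 to 31.8 RPKM in the Balb/cJ libraries against 88.9 and 144 in C57Bl/6EiJ.

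The strain comparison, which cannot be told apart from the date of the libraries and from the genome used for alignment, separated C5ar1 and Cxcr4. C5ar1 differed by -3.001 ± 0.371 in Balb/cJ against C57Bl/6EiJ (3 against 2 libraries, with treatment as a term; limma adjusted p = 0.01), and Cxcr4 by 1.79 ± 0.28 (limma adjusted p = 0.0282). In the vehicle libraries alone C5ar1 measured 6.72 RPKM in Balb/cJ and 88.9 in C57Bl/6EiJ, and Cxcr4 248 and 56.3. These are 1 library each, with no replicate of either. An alternative chosen after seeing the data assumes that they vary as other libraries do. With the spread of the 2 Balb/cJ KLA libraries, at 1 residual degree of freedom, neither passed (C5ar1 -3.54 ± 0.56, limma adjusted p = 0.0894; Cxcr4 2.12 ± 0.43, limma adjusted p = 0.131), and both passed with all 13 libraries (limma adjusted p = 0.00253 and 0.00542), where the spread comes mostly from iBMDMs, so that this is no replicate check of the strains. Both calls were lost without the C57Bl/6EiJ vehicle, the Balb/cJ vehicle or the C57Bl/6EiJ KLA library (limma adjusted p of 0.0549 to 0.185 for C5ar1 and of 0.104 to 0.261 for Cxcr4), and that of Cxcr4 also without Balb/cJ KLA replicate 1 (0.177). 2 of the 5 tested receptors were called, where 1.16% of genes were. Fold changes between strains fell with GC content (Spearman's rho -0.45 across 10286 genes, not independent replicates), and after its removal the differences were -3.06 for C5ar1 (limma adjusted p = 0.0112) and 1.59 for Cxcr4 (limma adjusted p = 0.0367). Of the 8 macrophage markers 5 had lower and 3 higher values in Balb/cJ (median -0.89), and Csf1r was the 1 called (-1.37 ± 0.26, limma adjusted p = 0.0483); their part in the difference was not tested. The test of a different KLA change in the 2 strains called 0 of 10357 genes at 1 residual degree of freedom, where 835 had an unadjusted limma p under 0.05. For Ccrl2 it gave 1.34 ± 0.57 (limma adjusted p = 0.645).

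TGEM vehicle libraries and Scramble iBMDMs carried different sets of receptors, in a comparison where cell source, culture and date differ together and cannot be told apart. Of the 2 TGEM vehicle libraries 1 is of Balb/cJ, while all iBMDMs are of C57Bl/6EiJ. Ccr1 (20.2 ± 10.0 RPKM, SD, n = 2, against 1.94 ± 0.11), Ccrl2 (80.3 ± 18.7 against 2.18 ± 0.26) and Cxcr4 (152 ± 135 against 23.8 ± 3.1) were higher in TGEMs. C5ar1 (47.8 ± 58.1 against 291 ± 10), Fpr1 (0 against 108 ± 20) and Fpr2 (0 against 43.9 ± 3.7) were lower. These 6 are called, where 19.9% of 10929 genes were, and all of them were called in each of 8 alternatives except Ccr1, which without the C57Bl/6EiJ vehicle library (2.56, limma adjusted p = 0.00234) fell under the RPKM minimum. At the C57Bl/6EiJ vehicle level of the same fit, not the mean of the strains, the difference of C5ar1 was -1.97 in place of -3.47. That of Cxcr4 was 1.38 in place of 2.27. This level comes from an additive fit of treatment and strain over all 13 libraries, not from the C57Bl/6EiJ vehicle library alone. The difference of Ccrl2 was 4.66, and 3.99 to 5.33 without 1 of the TGEM vehicle libraries, where the fit supplies the missing level. The 5 TGEM libraries held no read of Fpr1, so that it was at least 659-fold lower in the vehicle libraries at 3 reads over the group, and Fpr2 at least 259-fold lower. Cx3cr1 (0.07 against 10.8 RPKM) differed by -3.46 ± 0.22 (limma adjusted p = 1.31e-06) under the RPKM minimum, and C3ar1 (207 ± 41 against 206 ± 4) by -0.01 ± 0.26. Neutrophil markers summed to 13.8 to 20.3 RPKM in TGEM vehicle, stromal markers summed to 30.1 to 37.2 against at most 0.106 RPKM, and T, B and NK cell markers to 4.31 to 8.18 against at most 0.443; their part in the differences was not tested. All 8 macrophage markers were called as well, 6 lower in TGEMs, led by Adgre1 (45.9 RPKM against 706.5, -3.99 ± 0.20, limma adjusted p = 2.92e-07), and 2 higher, Cd68 (2.83 ± 0.33, limma adjusted p = 5.93e-05) and Mertk (1.82 ± 0.24, limma adjusted p = 0.000142).

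**Figure D4:**
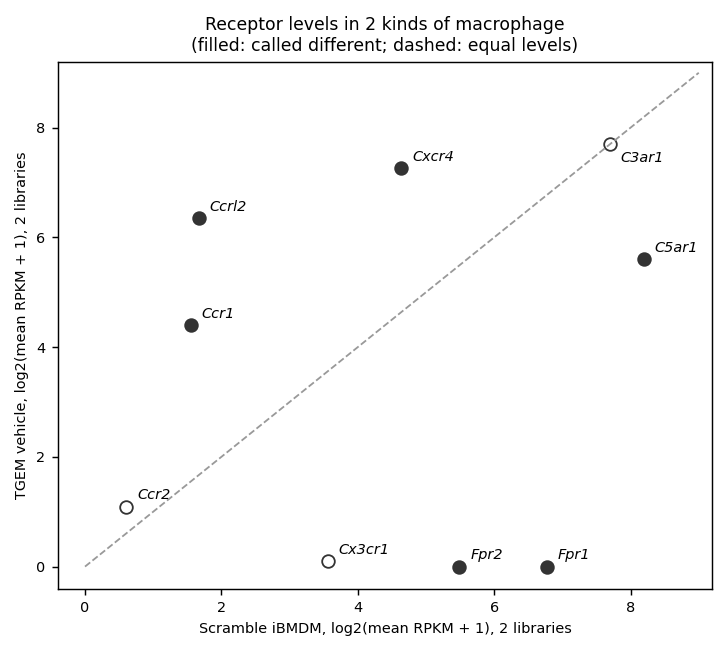
Each point is 1 receptor, with its Scramble iBMDM level on the horizontal axis and its TGEM vehicle level on the vertical axis, both as log2(mean RPKM + 1) of 2 libraries. Filled points are called, and the dashed line marks equal levels, on which C3ar1 lies (207 and 206 RPKM).

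The other chemoattractant receptors, ligands and coupling proteins were read from lists. Of 31 other receptors 30 are in the table and 7 were tested in iBMDMs. In JunDKO, where 4.97% of all genes were called, 1 of the 7 was, and in Atf3KO and JunKO (12.5% and 0.196% of all genes) 0 were called by limma-trend or limma-voom, with 6 and 2 at an unadjusted p under 0.05. The 1 in JunDKO was Gpr183, an oxysterol receptor, at 42.5 RPKM in JunDKO against 4.60 in Scramble (2.96 ± 0.21, limma adjusted p = 0.00012). C5ar2, the second receptor for C5a, measured 4.70 and 6.66 RPKM in JunDKO against 1.51 and 1.19 (1.49 ± 0.33, limma adjusted p = 0.0231, under the RPKM minimum). In TGEMs against Scramble, where 19.9% of all genes were called, 1 of 8 tested was, Ptafr, which reads platelet-activating factor (163 RPKM against 6.44, 4.47 ± 0.23, limma adjusted p = 3.07e-07). Cmklr1, the signalling receptor for chemerin, was listed at 4.81 to 11.2 RPKM in TGEMs and at 0 to 0.049 in iBMDMs.

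Of 11 ligands of the receptors tested in JunDKO, 7 had lower and 4 higher values, 6 passed the adjusted threshold and 4 were called, where 4.97% of all genes were called. The 4 called were all lower: C3, the source of C3a (21.6 RPKM against 166, -2.89 ± 0.17, limma adjusted p = 4.71e-05), Ccl7 (3.29 against 26.9, -2.71 ± 0.24, limma adjusted p = 0.000386), Anxa1 (302 against 649, -1.10 ± 0.23, limma adjusted p = 0.0193) and Ccl2 (14.6 against 30.9, -1.04 ± 0.19, limma adjusted p = 0.00995). Ccl2 and Ccl7 bind Ccr2, and Anxa1 binds Fpr2. The other 2 past the adjusted threshold, named after their values were seen, were under the RPKM minimum. Ccl12, also a ligand of Ccr2, stood at 0 and 0.102 RPKM in JunDKO and at 11.7 and 13.2 in Scramble (-3.68 ± 0.30, limma adjusted p = 0.00026). Rarres2, which encodes chemerin, the ligand of Ccrl2, was higher in JunDKO, at 6.44 and 5.27 RPKM against 1.48 and 0.835 (1.68 ± 0.30, limma adjusted p = 0.0093). In Atf3KO, where 12.5% of all genes were called, 2 were called higher and 2 lower, Anxa1 being the largest (-2.21 ± 0.23, limma adjusted p = 0.000584). After KLA, where 1.13% of all genes were called, 6 of 12 were called, all of them higher, led by Ccl4 (1108 RPKM against 18.6, 5.28 ± 0.39, limma adjusted p = 0.00097), Ccl7 (4.01 ± 0.69, limma adjusted p = 0.0381), Ccl3 (3.89 ± 0.43, limma adjusted p = 0.00529) and Ccl2 (3.77 ± 0.39, limma adjusted p = 0.00386). The ligand medians were -0.37 in JunDKO and 1.38 after KLA, against 0.23 and -0.15 over all genes.

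Among the coupling and desensitisation genes, of which 27 of 28 were tested in iBMDMs, 4 rose and 1 fell in JunDKO, where 4.97% of all genes were called. Rgs10 (149 RPKM against 19.0, 2.90 ± 0.20, limma adjusted p = 0.000114), Rgs2 and Rgs1, which switch G proteins off, and Plcb3 rose, and Rac2, a GTPase of the actin machinery, fell (46.9 against 149, -1.62 ± 0.24, limma adjusted p = 0.0042). In Atf3KO Rgs10 also rose (100.9 RPKM, 2.34 ± 0.20, limma adjusted p = 0.000272) while Rgs1 fell (2.45 against 22.9 RPKM, -2.78 ± 0.26, limma adjusted p = 0.000354), as did Gnai3. The median of the list was 0.33 in JunDKO, against 0.23 over all genes.

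Patterns over the 13 libraries were set beside those of all other genes by the root mean square difference of centred log2(RPKM + 1), a description that carries no test. Fpr1 was nearest to Cd300e (0.62, where the spread of Fpr1 itself was 3.10) and Mir7678 (0.72), and Fpr2 to Klra2 (0.63) and Cd300e (0.66). Ccrl2 was nearest to Il1a (0.75 against a spread of 3.88) and Pdpn (0.88), Cx3cr1 to Slc40a1 (0.60) and Asns (0.69), and Cxcr4 to Arsb (0.33) and Tgfbr2 (0.42). C5ar1 was nearest to Trim12a (0.48) and Pdk1 (0.58), Ccr1 to Tmcc3 (0.51) and Tspan13 (0.55), and C3ar1 to Itch (0.13) and Abi2 (0.16), with a spread of 0.36.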

How the data were processed

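The authors aligned polyA reads with STAR to mm10 (Balb/cJ reads to a genome of that strain in mm10 coordinates) and counted exons with HOMER, and RPKM values per gene model were deposited. Versions, strand and the handling of shared reads are not given in the sources used here. Values were used as deposited. The step of 1 read in low RPKM values gave depth and reads per value: 100% of values up to 50 reads were whole within 0.05 reads. Depth sets the precision, and intervals and floors (3 reads, 95%) cover counting error only. The study's own test needs counts and the deposited unit is RPKM, so limma 3.58.1 in R 4.3.3 took its place. The main fit was limma-trend on log2(RPKM + 1), with a filter of 1 RPKM on the mean of the fitted libraries. Adjustment was Benjamini-Hochberg over all tested models. The recovered reads entered the intervals and limma-voom, an alternative, and the study's test was not run on them. The fit of iBMDMs used 8 libraries, that of TGEMs 5. Called means an adjusted p under 0.05, at least 2-fold and at least 16 RPKM in either group. A fold change on this scale understates the change of low genes.

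The fit was tested on simulated data with known changes. GC content was known for 24162 models (98.8%). The labels do not say that replicates are separate cultures, so p values measure only the spread between these samples, which may be technical. Genes named were the 9 members, up to 4 called genes per list and comparison by size, and the 2 nearest patterns per member with at least 16 RPKM somewhere. C5ar2 and Cmklr1 were also given for their place beside members, and motifs were chosen with the values seen. Outside that rule, Ccl12, Rarres2, Fpr3, Itgam, the targeted genes and single cell type markers were named with their values seen. So was Plcb3, the smallest change among the called coupling genes of JunDKO. Members and lists were chosen with earlier results of these data known. Markers of neutrophils, eosinophils and mast cells, dendritic cells, lymphocytes and stroma were read beside macrophage markers. Eosinophil, mast and dendritic cell markers were at most 0.264 RPKM in sum in iBMDMs and at most 4.88 in TGEMs. GRO-seq (4 samples) was not analysed here. Tables were handled in pandas 2.3.3 and figures drawn in matplotlib 3.10.9, under Python 3.11.15.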

Additional observations from a re-analysis of the deposited data

Results flagged for a closer look

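The change of Ccr2 after KLA is given here because its computed values had opposite signs in the 2 strains of TGEMs, by a margin too small to be read as a difference. It was 0.002 RPKM in C57Bl/6EiJ (1.20 RPKM with and without KLA, on 14 and 49 reads) and -0.732 and -0.012 RPKM in the 2 Balb/cJ KLA libraries (mean -0.372). The C57Bl/6EiJ value and the smaller Balb/cJ value are no changes that could be detected at this depth, so no direction is drawn from them, and the difference was not tested.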

How the results depend on the processing

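Counts of called receptors changed with a few settings. In Atf3KO the count of 1 was 0 with a pseudocount of 0.1, with no filter on low values, at a log2 fold change of 2 and after GC correction, 3 with no RPKM minimum, and 0 to 2 with 1 library left out. In JunKO the 0 became 1, and in JunDKO the 3 became 5, with no RPKM minimum. In JunDKO it was 4 with a pseudocount of 0.1, after GC correction and without Scramble replicate 1, each time through Cxcr4. Atf3KO against JunDKO had 3 in place of 2 with quantile normalization and without Atf3KO replicate 1, through C3ar1, and without Atf3KO replicate 2, through Fpr2. JunDKO against JunKO had 3 in place of 4 at equal medians and without either JunDKO library, through Cxcr4. Atf3KO against JunKO had 1 with libraries set to equal medians or quantile normalised, and 0 to 1 with 1 library left out. For KLA the 1 became 0 with no filter, 2 with limma-voom and 3 in a single fit of 13 libraries, and was 0 to 1 with 1 library left out. For strain the 2 became 0 with no filter, 0 in the contrast of vehicle libraries fitted on 5 libraries (chosen after seeing the data) and 1 at a log2 fold change of 2, and was 0 to 2 with 1 library left out. Values that turned sign were those of receptors not called. These were Ccr2 in Atf3KO (0.023 with quantile normalization, 0.36 after GC correction), Ccr1 in JunKO (lowest -0.04, highest 0.49), C3ar1 in JunDKO (-0.18 at equal medians), Ccrl2 in Atf3KO against JunKO (0.61, quantile) and JunDKO (0.17, quantile), C5ar1 against JunKO (0.026, GC) and against JunDKO (0.081 at equal medians, 0.022 after GC), and Fpr1 in Atf3KO against JunKO (0.15, GC). Between JunDKO and JunKO they were C3ar1 (-0.016 at equal medians) and C5ar1 (0.21 quantile, 0.004 GC, and -0.02 to 0.007 with 1 library left out). C3ar1 after KLA gave 0.024 at equal medians and 0.017 after GC correction, and Ccrl2 between strains gave -0.47 to 0.87. C3ar1 in TGEMs against Scramble gave 0.30, 0.061, 0.38 and 0.22 (medians, quantile, GC, C57Bl/6EiJ level of the fit). It gave -0.054 to 0.036 with 1 library left out. The cause was not tested. A fit with the replicate number as a block gave 1, 0, 3, 0, 2 and 4 called receptors in the 6 iBMDM comparisons. Their order is Atf3KO, JunKO and JunDKO against Scramble, Atf3KO against JunKO, Atf3KO against JunDKO and JunDKO against JunKO. The block changed no call, though Cx3cr1 in JunKO, not a call, missed the adjusted threshold under it. The correlation of same-numbered deviations was 0.18 to 0.22 among Scramble, JunKO and JunDKO, which share a title date. It was -0.21 to -0.12 for the pairs with Atf3KO. The numbers were not taken as pairs in the main fit. Over all genes the count in JunKO was 21, and 8 with the block, and over the alternatives it ran from 5 to 58. The same range was 264 to 3068 in Atf3KO, 151 to 938 in JunDKO, 15 to 228 for KLA and 17 to 345 for strain.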
